A study of Rattus norvegicus with 18 samples.

Results

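Wild-type (WT) mesenchymal stem cells (MSCs) that were stretched were compared here with WT MSCs that were given serum. Every gene with a level of at least 1 FPKM (fragments per kilobase of transcript, scaled to library size) in at least 3 of the 9 WT libraries was a member, which gave 12916 of the 32623 genes in the table, and the other 19707 genes fell under that level and were not tested. The MSCs came from the bone marrow of 2-month-old wild-type rats of the SD strain, were used at passage 3 and were all starved of serum for 8 h. They then received 10% cyclic mechanical stretch (CMS, 3 libraries), fetal bovine serum (FBS, 3 libraries) or neither (serum starvation, SSt, 3 libraries), for 24 h by the labels, while the study's methods give a shorter time. The same 3 treatments of MSCs from miR-337-/- (KO) rats make up the other 9 of the 18 libraries. Marrow was flushed from leg bones and the adherent cells were grown with no sort stated, and stretch was applied on flexible plates coated with collagen. The comparison asks in what the response to stretch differs from the response to serum in the same starved cells.

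MSCs are stromal cells of the marrow that can form bone, cartilage and fat, and in culture they are the cells that stick to the dish. Stretch reaches the nucleus through focal adhesions, actin and the factors YAP and TEAD, while serum brings growth factors, lipids and hormones. NRF2 is a transcription factor that is broken down in unstressed cells and that switches on antioxidant and detoxifying enzymes when it is released.

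The 3 CMS libraries held 58282516 to 62056569 counts, the 3 FBS libraries 58952426 to 66671929 and the SSt libraries 63381441 to 71847969. CMS and FBS libraries correlated with each other at r = 0.984 to 0.987 on log2 scaled counts and with SSt libraries at 0.914 to 0.924. Nothing states that the 3 libraries of a group came from separate rats or cultures, so that p-values measure only the spread between these libraries. Among the CMS libraries, replicate 1 had the highest level in 324 of the 650 genes called lower in CMS, replicate 2 in 194 and replicate 3 in 132. Transcripts of macrophages were abundant in cells labelled as MSCs. The 48 macrophage and other myeloid markers summed to 16104 to 16694 FPKM in the CMS libraries and 15422 to 16263 FPKM in the FBS libraries, and the 26 MSC and stromal markers to 1957 to 2001 FPKM in the CMS libraries and 2047 to 2091 FPKM in the FBS libraries. Lepr, the leptin receptor that defines marrow MSCs in this study, had 0 counts in each CMS library and 8, 0 and 0 counts in the FBS libraries. These are counts of RNA, while for the protein the study reports nearly all its cultured MSCs as positive by flow cytometry. In the SSt libraries the macrophage and other myeloid markers summed to 7608 to 7812 FPKM and the MSC and stromal markers to 3168 to 3277 FPKM. In these bulk samples fewer cells of a type and less RNA per cell cannot be told apart. This holds also for the SSt levels given below, and the part of this difference in them was not tested.

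Stretched and serum-treated MSCs differed by many small amounts. With edgeR's quasi-likelihood test and Benjamini-Hochberg adjustment over all tested genes, 1155 genes (8.94%) passed an adjusted p of 0.05, and such genes are named called below. Of these 505 (3.91%) were higher in CMS and 650 (5.03%) lower. These shares of all tested genes stand for comparison with each list count below. In each of the 1155 called genes the FPKM values of the CMS and FBS libraries did not overlap. Over all tested genes this held in 3725 (28.8%), so that a lack of overlap adds nothing to a call. The median called difference was 1.17-fold among genes higher in CMS and 0.819-fold among genes lower in CMS, and 88.4% of the called genes differed by less than 1.5-fold. Fold changes of at least 2 were called in 28 genes (0.217%), 3 higher (0.0232%) and 25 lower (0.194%). The median log2 fold change of all tested genes was 0.0033. The count of 1155 fell to 685 without CMS replicate 2, 579 without CMS replicate 3, 588 without FBS replicate 1, 649 without FBS replicate 2 and 729 without FBS replicate 3, and DESeq2 called 1748.

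**Figure D1:**
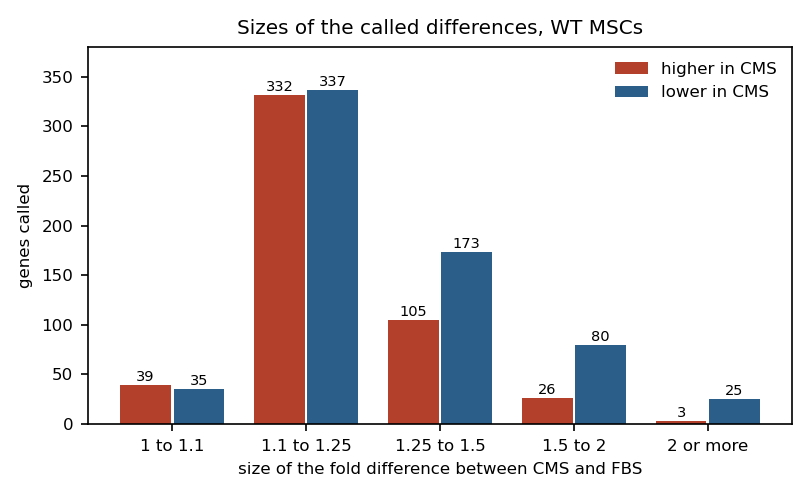
Number of genes called between CMS and FBS in WT MSCs (vertical axis) by the size of the fold difference (horizontal axis), with genes higher in CMS in red and lower in CMS in blue. Most called genes lie between 1.1-fold and 1.25-fold, with 332 higher and 337 lower, and above 1.5-fold the lower genes outnumber the higher ones.

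Most listed genes of the antioxidant response were higher in stretched than in serum-treated MSCs. Of the 24 tested members of the NRF2 and antioxidant list, 18 rose and 1 fell, against 3.91% and 5.03% of all tested genes, and the median of the list was 0.34 on the log2 scale. The list counted 16 or more higher members when any 1 library was left out. Its summed level was 6562 to 6770 FPKM in the CMS libraries, 4999.98 to 5190.3 FPKM in the FBS libraries and 5725 to 5859 FPKM in the SSt libraries.

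Enzymes that remove peroxides and heme are described first. Hmox1, which breaks down heme, measured 770.4, 755 and 702 FPKM in the CMS libraries, against 513, 495 and 513 FPKM in the FBS libraries (log2 fold change 0.56 ± 0.036 SE, edgeR adjusted p = 9.02e-05). Prdx1, a peroxidase that uses thioredoxin, measured 785, 748 and 787 FPKM in the CMS libraries, against 529.6, 534 and 542 FPKM in the FBS libraries (log2 fold change 0.54 ± 0.035 SE, edgeR adjusted p = 9.02e-05). The 3 CMS libraries lay above all 3 FBS libraries for both genes, and in SSt the means were 628 and 545 FPKM. Cat, the catalase that splits hydrogen peroxide, measured 206, 216 and 222 FPKM in the CMS libraries, against 155, 153 and 157 FPKM in the FBS libraries (log2 fold change 0.48 ± 0.041 SE, edgeR adjusted p = 0.000315). Sod1, the cytosolic superoxide dismutase, showed a smaller rise (log2 fold change 0.24 ± 0.042 SE, edgeR adjusted p = 0.00997).

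Called genes of the glutathione and thioredoxin systems come next. Slc7a11, the cystine importer that supplies glutathione synthesis, measured 43.7, 35.6 and 37.2 FPKM in the CMS libraries, against 23.7, 20.1 and 24.3 FPKM in the FBS libraries (log2 fold change 0.78 ± 0.11 SE, edgeR adjusted p = 0.00344). The groups did not overlap, CMS replicate 1 was the highest, and the SSt mean of 58.01 FPKM lay above both treatments. Gclc and Gclm, the catalytic and modifier subunits of the first enzyme of glutathione synthesis, rose by 0.28 and 0.27 on the log2 scale, and Gsr, which regenerates glutathione, by 0.31. Gstp1, a glutathione transferase, measured 913, 967 and 1024 FPKM in the CMS libraries, against 622, 598 and 668 FPKM in the FBS libraries (log2 fold change 0.63 ± 0.061 SE, edgeR adjusted p = 0.000515), and the transferases Gsta1 and Gsta4 rose by 0.47 and 0.55. Txnrd1 and Txn1, thioredoxin reductase and thioredoxin, rose by 0.36 and 0.28.

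Nqo1, a quinone reductase, measured 938, 910.0 and 1004 FPKM in the CMS libraries, against 705, 625 and 706 FPKM in the FBS libraries (log2 fold change 0.50 ± 0.05 SE, edgeR adjusted p = 0.000627), and Osgin1, an oxidative stress-induced growth inhibitor, 13.8, 13.8 and 13.2 FPKM in the CMS libraries, against 9.31, 8.18 and 9.03 FPKM in the FBS libraries (log2 fold change 0.64 ± 0.096 SE, edgeR adjusted p = 0.00459). Tkt and Taldo1, which recycle the sugars of the pentose phosphate pathway, rose by 0.43 and 0.37. Malic enzyme Me1, which makes NADPH and is not in that list, rose by 0.39. The metallothionein Mt2A was the exception and fell, with 222, 220.3 and 178 FPKM in the CMS libraries, against 296, 297 and 278 FPKM in the FBS libraries (log2 fold change -0.48 ± 0.078 SE, edgeR adjusted p = 0.00638). Mt1, Abcc1, Gpx1, Gpx3 and Gstm1 were the 5 members that were not called, with log2 fold changes of -0.58, 0.17, -0.14, -0.05 and 0.09.

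**Figure D2:**
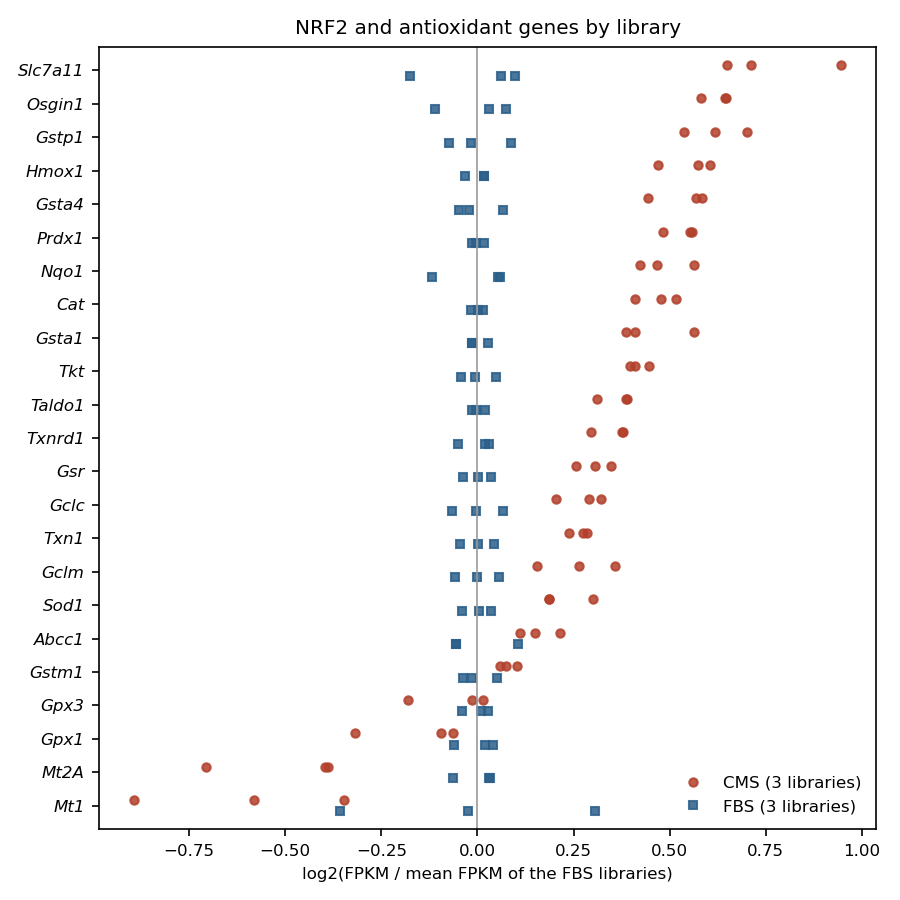
Levels of the NRF2 and antioxidant genes named in the text in each library of WT MSCs, as log2 of FPKM over the mean FPKM of the FBS libraries (horizontal axis), with CMS libraries as red circles and FBS libraries as blue squares. From Slc7a11 down to Sod1 all CMS circles lie to the right of the FBS squares, and Mt2A lies to the left.

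NRF2 binds the antioxidant response element, searched here as TGACNNNGC on both strands in the RefSeq promoters (build GRCr8, 250 bases before to 50 after the start). This motif was chosen after the calls were known. It was in 5 of the 16 promoters matched among the 19 called members, in 6 of the 21 matched among the 24 tested members, in 15.2% of the 9178 promoters matched among all tested genes and in 12.1% of all 33469 promoters. Of the 5 called genes that carry it 4 rose, and the other was Mt2A, which fell. Windows around it are shown for 3 of the genes that rose and for Mt2A, printed on the strand of the gene with the element in capitals. In Prdx1 and Gclm the capitals are the reverse complement of the motif. Prdx1 lies at chr5:135383761-135383789 (+), Gstp1 at chr1:210769748-210769776 (-), Gclm at chr2:213031953-213031981 (+) and Mt2A at chr19:10838927-10838955 (-).
Prdx1: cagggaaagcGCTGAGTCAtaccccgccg
Gstp1: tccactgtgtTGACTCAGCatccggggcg
Gclm: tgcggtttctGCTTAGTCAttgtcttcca
Mt2A: aaagggggtgTGACTCAGCgcgggggcgt
The element starts 135 bases before the start of Prdx1, 61 before that of Gstp1, 172 before that of Gclm and at position -237 from that of Mt2A. A match of letters is a description and no binding was measured.

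Some cytosolic chaperones rose too. Of 21 tested heat shock genes 9 were higher in CMS and 0 lower, with a median log2 fold change of 0.19. Hsp90ab1, the constitutive form of the HSP90 chaperone, measured 769, 755 and 765 FPKM in the CMS libraries, against 662, 654 and 649.5 FPKM in the FBS libraries (log2 fold change 0.23 ± 0.021 SE, edgeR adjusted p = 0.000428), and Hsp90aa1, its inducible form, 113, 101 and 109 FPKM in the CMS libraries, against 84.8, 86.9 and 86.6 FPKM in the FBS libraries (log2 fold change 0.33 ± 0.041 SE, edgeR adjusted p = 0.00169). The groups of 3 stayed apart for both. Hspa8, Hsph1, Dnaja1 and the co-chaperone Bag3 rose by 0.19, 0.24, 0.20 and 0.27 on the log2 scale. The heat shock element, searched as GAANNTTC and also chosen after the calls, was in 6 of the 8 promoters matched among the 9 called members, in 11 of the 17 matched among the 21 tested, in 5.63% of those of all tested genes and in 8.59% of all promoters. Hsph1 shows it at chr12:10427327-10427354 (+), 31 bases before its start.
Hsph1: gcagattctgGAAAGTTCtcctcagtag
In neighbouring lists of protein quality control, 3 of 30 proteasome subunits and 2 of 26 genes of ER chaperones and the unfolded protein response rose, and 0 fell. The proteasome count was 0 with other scalings (RLE size factors or library totals), with limma and without CMS replicate 1 or 2 or any 1 FBS library, and 1 without CMS replicate 3, SSt replicate 2 or SSt replicate 3. The ER count was 0 with library totals, with limma, with no FPKM filter, with the replicate block, in the 6 CMS and FBS libraries alone and without CMS replicate 1, CMS replicate 3 or any 1 FBS or SSt library, and 1 with RLE size factors or without CMS replicate 2. Sqstm1, the autophagy receptor p62, was chosen after its values were seen and measured 535, 569.8 and 566 FPKM in the CMS libraries, against 386, 382 and 394 FPKM in the FBS libraries (log2 fold change 0.53 ± 0.031 SE, edgeR adjusted p = 8.69e-05).

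Cpt1a and Slc6a9 were among the 12 genes named for the largest rise at 5 FPKM or more without overlap of the groups. Plin2 was the 1 higher of 17 tested adipocyte genes (3 with DESeq2, and 2 without FBS replicate 1 or 2). Cpt1a, which admits fatty acids to mitochondria, measured 30.9, 30.4 and 29.4 FPKM in the CMS libraries, against 19.1, 20.01 and 17.3 FPKM in the FBS libraries (log2 fold change 0.70 ± 0.051 SE, edgeR adjusted p = 0.000166), and Plin2, the coat protein of lipid droplets, 169, 173 and 175 FPKM in the CMS libraries, against 111, 124 and 108 FPKM in the FBS libraries (log2 fold change 0.60 ± 0.058 SE, edgeR adjusted p = 0.000484). Slc6a9, the glycine transporter, measured 43.4, 44.97 and 45.2 FPKM in the CMS libraries, against 27.9, 26.2 and 28.3 FPKM in the FBS libraries (log2 fold change 0.71 ± 0.058 SE, edgeR adjusted p = 0.000256). For these 3 genes, as for every called gene, the groups of 3 stayed apart, which was a condition for naming Cpt1a and Slc6a9. Of 31 tested ATF4 targets and genes of amino acid supply 5 rose and 1 fell. They include Slc3a2, the shared heavy chain of several amino acid exchangers, and the glutamine importer Slc38a2, at log2 fold changes of 0.21 and 0.20. The count of 5 was 3 without CMS replicate 2, CMS replicate 3 or FBS replicate 3 and in the 6 CMS and FBS libraries alone, and that of 1 was 0 without FBS replicate 2. Akr1b8, an aldo-keto reductase, and Creg1, a secreted lysosomal glycoprotein, rose by 0.62 and 0.63, and the drug and prostanoid exporter Abcc4 by 0.60. Synthesis of lipid did not move in 1 direction, with 2 of 17 fatty acid synthesis genes higher and 3 lower (1 higher and 1 lower without CMS replicate 3 or FBS replicate 2, and 1 higher without FBS replicate 1). Hmgcs1 and Dhcr7, enzymes of sterol synthesis, fell by 0.30 and 0.25, as did 3 of the 26 tested members of their list. That count was 8 without CMS replicate 2, 1 without CMS replicate 3 and 9 with DESeq2.

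**Figure D3:**
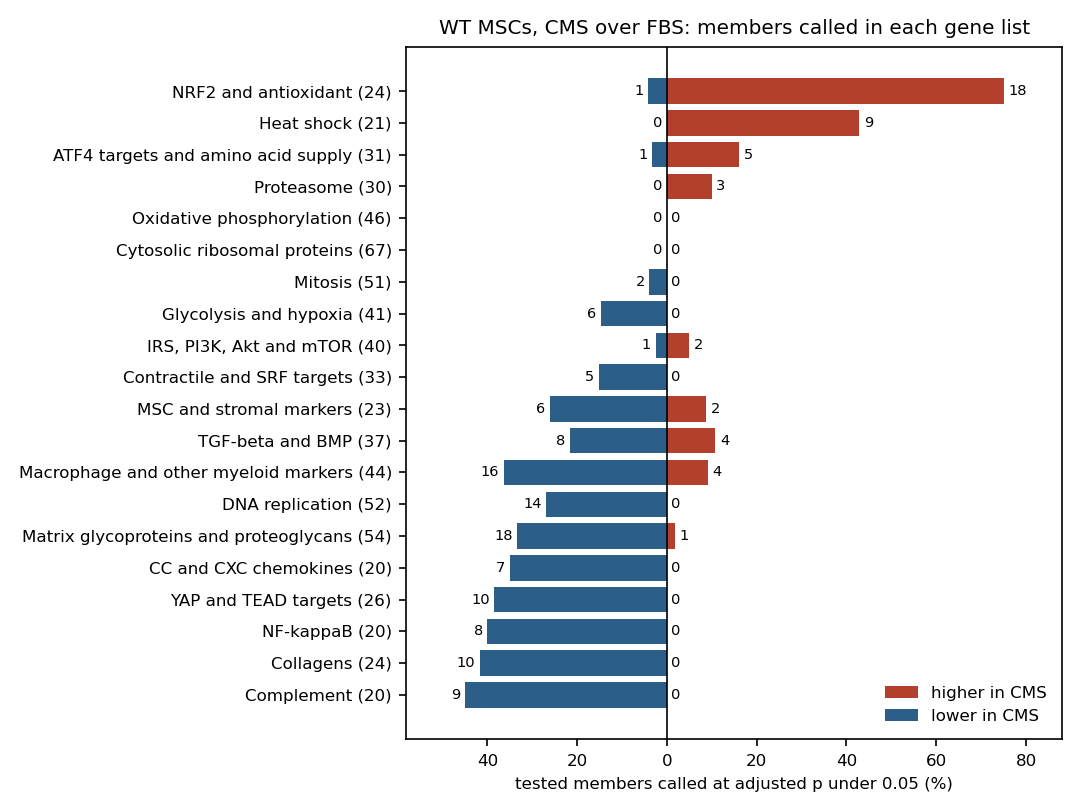
Share of tested members called in 20 gene lists (horizontal axis, %) for CMS over FBS in WT MSCs, with members higher in CMS to the right in red and lower to the left in blue. The number called stands at each bar and the number tested in parentheses. The NRF2 and antioxidant list reaches 18 higher members, and the YAP and TEAD, NF-kappaB, collagen and complement lists have lower members only.

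Some targets of the stretch-responsive factors YAP and TEAD were lower under stretch than with serum. Of 26 tested members 0 rose and 10 fell, with a median log2 fold change of -0.13. Ccn1, a matrix-bound signalling protein, measured 9.32, 8.75 and 9.71 FPKM in the CMS libraries, against 16.2, 15.8 and 16.5 FPKM in the FBS libraries (log2 fold change -0.79 ± 0.046 SE, edgeR adjusted p = 8.69e-05). Amotl2, a scaffold that holds YAP in the cytoplasm, measured 14.3, 14.1 and 13.4 FPKM in the CMS libraries, against 21.3, 21.1 and 20.8 FPKM in the FBS libraries (log2 fold change -0.58 ± 0.035 SE, edgeR adjusted p = 8.69e-05). In SSt the means were 176 and 51.7 FPKM, above both treatments. Ddah1, which breaks down methylated arginine, measured 2.92, 2.43 and 3.17 FPKM in the CMS libraries, against 4.56, 4.70 and 4.76 FPKM in the FBS libraries (log2 fold change -0.71 ± 0.082 SE, edgeR adjusted p = 0.00123). The groups of 3 did not overlap for any of the 3, as in all called genes. The count of 10 was 6 without CMS replicate 1 or FBS replicate 3 and 5 without CMS replicate 3 or FBS replicate 2.

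The TEAD motif GGAATG, searched on both strands, was in 2 of the 9 promoters matched among the 10 called targets, in 7 of the 20 matched among the 26 tested targets, in 11.0% of those of all tested genes and in 14.2% of all promoters. The promoters of the called targets belong to Ccn1 at chr2:237225787-237225812 (-) and to Amotl2 at chr8:112182540-112182565 (+). The motif stands in capitals and is the reverse complement as printed.
Ccn1: cgccaaccaaCATTCCtgagatgttt
Amotl2: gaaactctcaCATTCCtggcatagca
It starts 113 bases before the start of Ccn1 and 76 before that of Amotl2.

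Levels of the pathway's own parts mostly stayed within the spread. Among 21 tested Hippo pathway components 0 rose and 3 fell. The TEAD cofactor Vgll3 was 1 of them, with 16.4, 13.2 and 12.6 FPKM in the CMS libraries, against 22.3, 22.9 and 20.3 FPKM in the FBS libraries (log2 fold change -0.63 ± 0.094 SE, edgeR adjusted p = 0.00459). Yap1 itself measured 32.2, 30.4 and 29.7 FPKM in the CMS libraries, against 32.05, 29.6 and 28.3 FPKM in the FBS libraries (log2 fold change 0.05, 95% interval of the single gene -0.08 to 0.17, edgeR adjusted p = 0.661). Of 13 tested mechanosensitive channels 2 rose and 2 fell. The polycystin channel Pkd2 rose, with 19.4, 20.4 and 21.1 FPKM in the CMS libraries, against 15.6, 15.4 and 15.6 FPKM in the FBS libraries (log2 fold change 0.40 ± 0.038 SE, edgeR adjusted p = 0.000484), and so did Trpv2 at 0.18. The stretch-gated potassium channel Kcnk2 fell, with 1.39, 1.59 and 1.45 FPKM in the CMS libraries, against 2.44, 2.44 and 2.59 FPKM in the FBS libraries (log2 fold change -0.74 ± 0.17 SE, edgeR adjusted p = 0.0256), as did the cation channel Trpc6 at -0.63. The count of 2 lower channels was 0 without any 1 of the CMS or FBS libraries and at 5 FPKM. Piezo1, the channel that opens when the membrane is pulled, was not called, at 54.96, 51.1 and 50.5 FPKM in the CMS libraries, against 59.5, 55.1 and 54.96 FPKM in the FBS libraries (log2 fold change -0.10, 95% interval of the single gene -0.20 to -0.01, edgeR adjusted p = 0.157).

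Of 33 tested contractile genes and targets of serum response factor 0 rose and 5 fell (2 and 10 with DESeq2), and of 24 tested focal adhesion genes 0 rose and 1 fell. Actb, cytoplasmic actin, measured 1484, 1453 and 1466 FPKM in the CMS libraries, against 1729, 1729 and 1722 FPKM in the FBS libraries (log2 fold change -0.22 ± 0.022 SE, edgeR adjusted p = 0.000516). Tpm2, a tropomyosin of stress fibres, fell by 0.28 on the log2 scale, and the focal adhesion proteins Zyx and Vcl fell by 0.23 and 0.18. Immediate-early genes, the first to answer a growth factor, were listed together with ERK feedback genes. Of 37 tested members of that list 1 rose and 4 fell. Egr1, an early zinc finger factor, measured 6.65, 7.82 and 7.12 FPKM in the CMS libraries, against 14.1, 14.6 and 12.6 FPKM in the FBS libraries (log2 fold change -0.92 ± 0.11 SE, edgeR adjusted p = 0.00148), its CMS values all under its FBS values. Klf4 fell by 0.21, and Atf3, a stress-induced factor, rose by 0.36. The count of 4 was 1 without CMS replicate 2, CMS replicate 3 or FBS replicate 1, and 10 with DESeq2, and that of 1 was 0 without CMS replicate 3, FBS replicate 1 or FBS replicate 2. An integrin subunit moved each way: Itga9 fell (log2 fold change -1.08 ± 0.19 SE, edgeR adjusted p = 0.00981) and Itgb3 rose (log2 fold change 0.40 ± 0.065 SE, edgeR adjusted p = 0.0066), of 16 tested integrins with 1 higher and 3 lower (1 lower without CMS replicate 2 or 3 or FBS replicate 2 or 3, and 5 lower with DESeq2).

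Transcripts of some matrix genes were lower in CMS than in FBS. Of 24 tested collagens 0 rose and 10 fell, with a median log2 fold change of -0.17. Col1a1, the chain that dominates bone matrix, measured 1306, 1327 and 1274 FPKM in the CMS libraries, against 1540.4, 1429.9 and 1403 FPKM in the FBS libraries (log2 fold change -0.15 ± 0.033 SE, edgeR adjusted p = 0.0229). Larger falls were seen in Col12a1, which sits on fibril surfaces, with 16.8, 15.7 and 15.5 FPKM in the CMS libraries, against 22.4, 22.4 and 23.7 FPKM in the FBS libraries (log2 fold change -0.51 ± 0.053 SE, edgeR adjusted p = 0.000696). Col14a1 and Col8a1 fell by 0.39 and 0.36, and the endostatin precursor Col18a1 by 0.24.

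Of 54 tested matrix glycoproteins and proteoglycans 1 rose and 18 fell. Thbs1, a matricellular glycoprotein that can activate latent TGF-beta, measured 177, 192 and 176 FPKM in the CMS libraries, against 266, 239 and 252 FPKM in the FBS libraries (log2 fold change -0.46 ± 0.043 SE, edgeR adjusted p = 0.000428), and its SSt mean was 2372 FPKM. Thbs2, the tenascin Tnc, the proteoglycan Lum and Sparc fell by 0.34, 0.24, 0.21 and 0.12. Sned1, a matrix glycoprotein, measured 18.5, 16.2 and 18.8 FPKM in the CMS libraries, against 30.5, 29.6 and 30.3 FPKM in the FBS libraries (log2 fold change -0.75 ± 0.063 SE, edgeR adjusted p = 0.000283). Its SSt mean of 0.618 FPKM lay far under both treatments. Fn1, fibronectin, was the most abundant matrix transcript named here and was not called (log2 fold change 0.06, edgeR adjusted p = 0.314). Ltbp4, which anchors latent TGF-beta in the matrix, was the member that rose, by 0.33. The count of 18 was 12 without CMS replicate 3, FBS replicate 1 or FBS replicate 2, and DESeq2 called 4 higher.

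Enzymes that remodel matrix moved both ways, with 5 of 41 tested proteases and inhibitors higher and 12 lower. Timp1, an inhibitor of matrix metalloproteinases, measured 260.3, 243 and 247 FPKM in the CMS libraries, against 355, 355 and 340.4 FPKM in the FBS libraries (log2 fold change -0.48 ± 0.034 SE, edgeR adjusted p = 0.000146). Adamts1, a secreted protease that cleaves versican, went the other way with 64.5, 68.2 and 71.1 FPKM in the CMS libraries, against 46.2, 48.8 and 49.6 FPKM in the FBS libraries (log2 fold change 0.51 ± 0.051 SE, edgeR adjusted p = 0.000622). Both genes kept their groups apart. The collagenase Mmp13 fell by 0.55, and Adamts9 by 1.01, at means of 0.645 FPKM in CMS and 1.31 FPKM in FBS. The count of 12 was 6 without CMS replicate 2 or FBS replicate 3, 5 without CMS replicate 3 or FBS replicate 2 and 4 without FBS replicate 1, and that of 5 was 3 without FBS replicate 1.

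Some chemokines and other inflammatory signals were lower in CMS than in FBS. Of 20 tested chemokines 0 rose and 7 fell, with a median log2 fold change of -0.41. Ccl12, a monocyte attractant of rodents, measured 13.4, 7.66 and 7.32 FPKM in the CMS libraries, against 29.2, 25.9 and 27.9 FPKM in the FBS libraries (log2 fold change -1.54 ± 0.2 SE, edgeR adjusted p = 0.0023). Cxcl12, which holds blood stem cells in the marrow, measured 32.1, 27.6 and 24.6 FPKM in the CMS libraries, against 46.3, 44.1 and 42.1 FPKM in the FBS libraries (log2 fold change -0.64 ± 0.082 SE, edgeR adjusted p = 0.00203). The neutrophil attractants Cxcl1 and Cxcl6 fell by 0.40 and 0.67, Ccl20 by 0.72, Ccl2 by 0.32 and Cx3cl1 by 0.52. In all 7 the CMS library of replicate 1 was the highest of the 3 and nearest to FBS. The count of 7 was 12 without that library, 3 without CMS replicate 2, FBS replicate 1 or FBS replicate 2, and 4 without CMS replicate 3 or in the 6 CMS and FBS libraries alone.

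**Figure D4:**
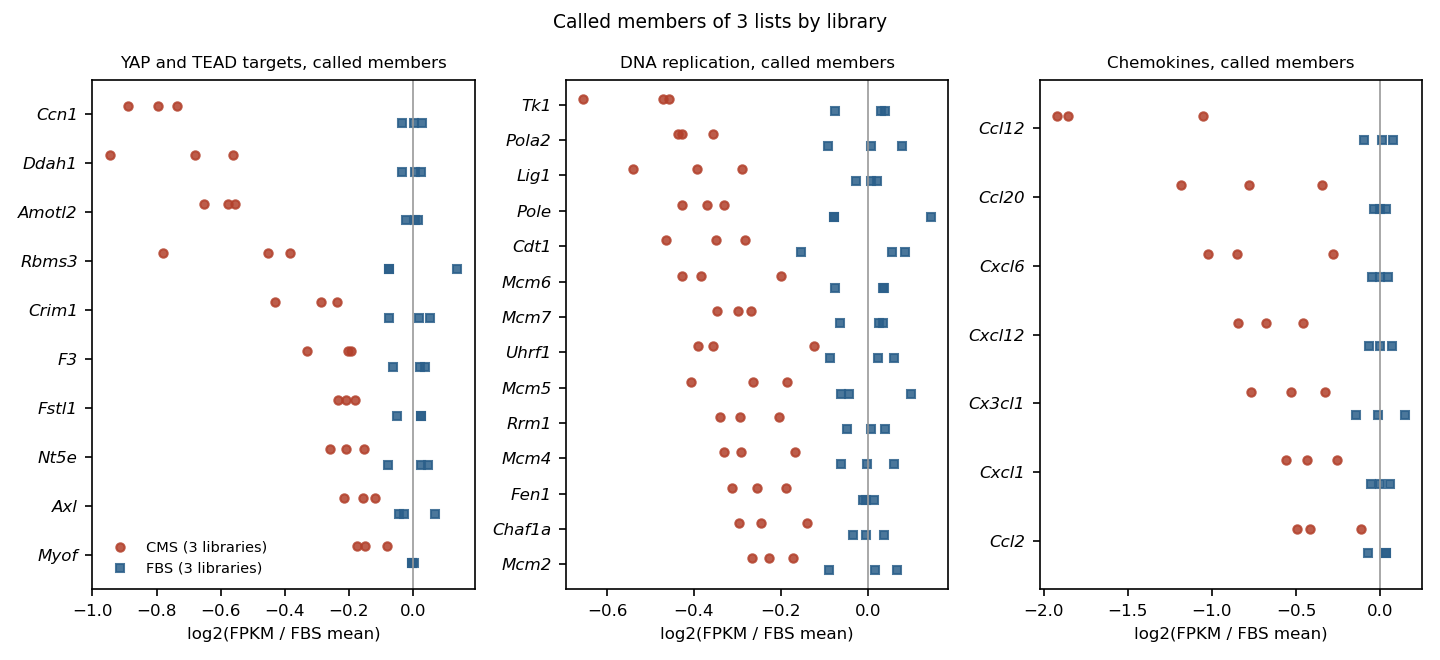
Called members of the YAP and TEAD, DNA replication and chemokine lists in each library of WT MSCs, as log2 of FPKM over the mean FPKM of the FBS libraries (horizontal axes), with CMS libraries as red circles and FBS libraries as blue squares. The CMS circles lie to the left of the FBS squares in each row. Replicates are not marked, and for the 7 chemokines the circle nearest to FBS is CMS replicate 1.

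Among 25 tested cytokines and colony-stimulating factors 1 rose and 6 fell. Il6 measured 8.27, 9.67 and 6.92 FPKM in the CMS libraries, against 13.3, 11.8 and 12.7 FPKM in the FBS libraries (log2 fold change -0.60 ± 0.1 SE, edgeR adjusted p = 0.00743) and Csf3, which drives neutrophil production, 4.24, 3.09 and 2.04 FPKM in the CMS libraries, against 6.35, 5.53 and 5.44 FPKM in the FBS libraries (log2 fold change -0.88 ± 0.19 SE, edgeR adjusted p = 0.024). Both were far higher in SSt, at means of 441 and 516 FPKM. Tnfrsf11b, the decoy receptor that restrains osteoclast formation, fell by 0.70. Of 20 tested NF-kappaB genes 0 rose and 8 fell, with Icam1, a leukocyte adhesion receptor, at 83.99, 81.6 and 73.4 FPKM in the CMS libraries, against 109.8, 107 and 103 FPKM in the FBS libraries (log2 fold change -0.41 ± 0.052 SE, edgeR adjusted p = 0.00194). In all 8 CMS replicate 1 was again the highest CMS library. The NF-kappaB count was 12 without CMS replicate 1, 2 without CMS replicate 2, CMS replicate 3 or FBS replicate 1, 3 without FBS replicate 2 or 3, 4 without SSt replicate 2 and 5 in the 6 CMS and FBS libraries alone. The cytokine count of 6 was 3 without FBS replicate 1 or 2, and 10 with DESeq2, and that of 1 was 0 with the replicate block and without CMS replicate 1, CMS replicate 3, SSt replicate 2 or any 1 FBS library.

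Genes of prostaglandin and nitric oxide metabolism, held in a joint list, were called in both directions, 3 higher and 5 lower of 21 tested. Slco2a1, which takes prostaglandins into cells, measured 1.20, 1.17 and 0.912 FPKM in the CMS libraries, against 2.98, 2.33 and 2.65 FPKM in the FBS libraries (log2 fold change -1.27 ± 0.12 SE, edgeR adjusted p = 0.000527), and Pla2g2a, a secreted phospholipase, 84.9, 64.8 and 57.4 FPKM in the CMS libraries, against 139.9, 111 and 125 FPKM in the FBS libraries (log2 fold change -0.85 ± 0.13 SE, edgeR adjusted p = 0.00493). Ptges and Ptgs2, which make prostaglandin E2 in sequence, fell by 0.70 and 0.28 against SSt means of 766 and 811 FPKM. The count of 5 was 3 without CMS replicate 2 or 3 or any 1 FBS library, and that of 3 was 1 without CMS replicate 3 or FBS replicate 2 and 5 without SSt replicate 1, with DESeq2 or in the 6 CMS and FBS libraries alone. Of 20 tested complement genes 0 rose and 9 fell. Cd55, which shields cells from complement, fell by 0.43, and Ptx3, a soluble pattern receptor outside that list, measured 15.1, 12.7 and 12.05 FPKM in the CMS libraries, against 28.1, 26.6 and 24.6 FPKM in the FBS libraries (log2 fold change -0.98 ± 0.08 SE, edgeR adjusted p = 0.000252). The complement count was 3 without CMS replicate 2 or 3 and 4 without FBS replicate 1 or 3.

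Markers of macrophages were called in both directions, more of them lower in CMS. Of 44 tested macrophage and other myeloid markers 4 rose and 16 fell, with a median log2 fold change of -0.12. Adgre1, the F4/80 antigen, measured 23.3, 18.8 and 21.02 FPKM in the CMS libraries, against 40.1, 36.5 and 45.1 FPKM in the FBS libraries (log2 fold change -0.94 ± 0.12 SE, edgeR adjusted p = 0.00233), and C3ar1, the receptor of complement fragment C3a, 0.565, 0.743 and 0.777 FPKM in the CMS libraries, against 2.21, 2.39 and 2.04 FPKM in the FBS libraries (log2 fold change -1.65 ± 0.17 SE, edgeR adjusted p = 0.000647). The lectin receptors Clec4a3 and Clec4a1 fell by 0.78 and 0.98. Csf1r, the receptor on which macrophages depend, measured 139, 136 and 144 FPKM in the CMS libraries, against 160.0, 157 and 165 FPKM in the FBS libraries (log2 fold change -0.19 ± 0.029 SE, edgeR adjusted p = 0.004). Aif1, Cd14, Tlr2, C1qa and C1qc fell by 0.41, 0.37, 0.50, 0.46 and 0.56. Of the 4 most abundant markers 1 rose and 3 were not called. Gpnmb, a lysosomal glycoprotein of macrophages and osteoclasts, measured 6393, 6546 and 6735 FPKM in the CMS libraries, against 5534, 6158 and 5923 FPKM in the FBS libraries (log2 fold change 0.17 ± 0.04 SE, edgeR adjusted p = 0.0309), and Lyz2, lysozyme, had 4666, 4857 and 4999 FPKM in the CMS libraries, against 4776, 5102 and 5085 FPKM in the FBS libraries (log2 fold change -0.03, edgeR adjusted p = 0.635). Fcer1g, the common gamma chain of Fc receptors, and Cd68, a lysosomal glycoprotein, stood at -0.06 and 0.01 (edgeR adjusted p = 0.229 and 0.944). Cybb, Laptm5 and Tlr8, chosen after their values were seen, rose by 0.12, 0.14 and 0.23. Ptprc, the pan-leukocyte antigen CD45, stood at 47.6, 48.95 and 49.5 FPKM in the CMS libraries, against 44.8, 45.5 and 58.5 FPKM in the FBS libraries and was not called (edgeR adjusted p = 0.94). The count of 16 was 8 without CMS replicate 2, CMS replicate 3 or FBS replicate 3 and 9 without FBS replicate 1. The count of 4 was 0 without CMS replicate 3 or with limma, 1 without CMS replicate 2 or any 1 FBS library and 2 without CMS replicate 1 or SSt replicate 2. The part of macrophages in the other lists, such as complement and chemokines, was not tested.

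Markers of stroma and of other lineages are given by their counts and summed levels. Of 23 tested MSC and stromal markers 2 rose and 6 fell, among them Thy1 and Grem1, which fell by 0.18 and 0.33, and Pdgfra by 0.17, while Eng rose by 0.24. The count of 6 was 2 without CMS replicate 3 and 3 without CMS replicate 2 or any 1 FBS library, and that of 2 was 1 without any 1 library. The stromal markers summed to 1957 to 2001 FPKM in the CMS libraries and 2047 to 2091 FPKM in the FBS libraries, and the macrophage markers to 16104 to 16694 FPKM in the CMS libraries and 15422 to 16263 FPKM in the FBS libraries. Osteoclast markers, of which 12 of 15 were tested, summed to 338 to 352 FPKM in the CMS libraries and 368 to 385 FPKM in the FBS libraries, with 1 higher and 3 lower (1 lower without CMS replicate 2 or FBS replicate 1). Erythroid and megakaryocyte markers summed to 498 to 539 FPKM in the CMS libraries and 540.0 to 559 FPKM in the FBS libraries, and 2 of 16 were tested. Pf4, a chemokine of platelets, made up most of that sum, with means of 497 FPKM in the CMS libraries and 528 FPKM in the FBS libraries, and was not called (edgeR adjusted p = 0.243). Nerve and Schwann cell markers summed to 93.2 to 94.99 FPKM in the CMS libraries and 94.6 to 100.2 FPKM in the FBS libraries, and lymphocyte markers to 73.6 to 81.5 FPKM in the CMS libraries and 86.7 to 94.6 FPKM in the FBS libraries, with 5 tested in each list. Of the lymphocyte markers Cd4 was the most abundant, and 13 of 21 had 0 counts in all CMS libraries and 13 in all FBS libraries. That sum is therefore no measure of lymphocytes. The part of these cell types in the results was not tested. In the granulocyte list 12 of 18 markers had 0 counts in all CMS libraries and 12 in all FBS libraries, and its sum was 2.65 to 2.78 FPKM in the CMS libraries and 3.318 to 3.496 FPKM in the FBS libraries. Epithelial markers summed to 1.51 to 1.94 FPKM in the CMS libraries and 1.78 to 2.23 FPKM in the FBS libraries. Endothelial and mural markers summed to 39.7 to 41.5 FPKM in the CMS libraries and 39.97 to 41.9 FPKM in the FBS libraries, and 0 of 5 tested ones were called. Alpl and Runx2, early markers of bone formation, were not called, at log2 fold changes of -0.58 and 0.14 (edgeR adjusted p = 0.0902 and 0.369), and Bglap had 8, 4 and 4 counts in the CMS libraries and 0, 4 and 0 in the FBS libraries.

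Part of the replication machinery was lower in CMS by small steps. Of 52 tested DNA replication genes 0 rose and 14 fell, with a median log2 fold change of -0.20. Tk1, which salvages thymidine, measured 9.77, 9.67 and 8.52 FPKM in the CMS libraries, against 13.7, 12.7 and 13.8 FPKM in the FBS libraries (log2 fold change -0.51 ± 0.057 SE, edgeR adjusted p = 0.00101). The subunits of the MCM helicase fell by 0.21 (Mcm2), 0.25 (Mcm4), 0.32 (Mcm6) and 0.29 (Mcm7). Cdt1, which loads that helicase, fell by 0.35, Pole, a leading-strand polymerase, by 0.36 and Rrm1, which makes deoxynucleotides, by 0.27. For Mcm7 the values were 13.1, 12.7 and 13.4 FPKM in the CMS libraries, against 16.4, 15.4 and 16.5 FPKM in the FBS libraries (log2 fold change -0.29 ± 0.045 SE, edgeR adjusted p = 0.00479), with no overlap. In 12 of the 14 CMS replicate 1 was the highest CMS library. The count of 14 was 6 without CMS replicate 2, 7 without CMS replicate 3, 8 without FBS replicate 2, 9 without FBS replicate 1 or 3 and 9 in the 6 CMS and FBS libraries alone.

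E2F factors switch these genes on before S phase. The E2F motifs TTTCCCGC, TTTGGCGC, TTTCGCGC and TTTGCCGC, searched together on both strands, were in 7 of the 13 promoters matched among the 14 called genes, in 22 of the 44 matched among the 52 tested, in 4.30% of those of all tested genes and in 2.14% of all promoters. Overlapping matches were counted once per promoter. Windows of 3 promoters are shown with 1 match each in capitals, for Mcm7 at chr12:22163213-22163240 (-), Mcm6 at chr13:42404474-42404501 (-) and Pole at chr12:52053647-52053674 (-).
Mcm7: ggtgacgacgTTTCGCGCcaatttcggt
Mcm6: ggcgtctgctTTTGGCGCgaaattagcg
Pole: acatgagagcGCGCCAAAttttcccggg
The match of Pole is on the other strand.

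Of 51 tested mitosis genes 0 rose and 2 fell, against 5.03% lower among all tested genes, with a median of -0.04. The count of 2 was 4 without CMS replicate 1 and 1 without CMS replicate 2, FBS replicate 1 or FBS replicate 3. The pair was Mybl2, 3.04, 3.33 and 2.98 FPKM in the CMS libraries, against 3.94, 3.85 and 4.24 FPKM in the FBS libraries (log2 fold change -0.35 ± 0.054 SE, edgeR adjusted p = 0.00493), and Foxm1, 6.12, 6.01 and 6.25 FPKM in the CMS libraries, against 7.46, 6.98 and 7.56 FPKM in the FBS libraries (log2 fold change -0.25 ± 0.049 SE, edgeR adjusted p = 0.0153), both of them transcription factors of the late cell cycle. Mki67, the marker of dividing cells, stood at 23.3, 21.4 and 22.4 FPKM in the CMS libraries, against 21.2, 22.7 and 22.2 FPKM in the FBS libraries and was not called (log2 fold change 0.03, 95% interval of the single gene -0.07 to 0.13, edgeR adjusted p = 0.724). The CHR motif TTTGAA was in 28 of the 43 matched promoters of tested mitosis genes, against 11.4% of those of all tested genes and 18.4% of all promoters, and the NF-Y motif CCAAT in 30 of the 43, against 37.97% and 37.5%. Of 25 tested regulators of entry into the cycle 2 rose and 2 fell. Ccnd1, cyclin D1, measured 39.98, 42.8 and 44.5 FPKM in the CMS libraries, against 51.00, 51.5 and 48.8 FPKM in the FBS libraries (log2 fold change -0.24 ± 0.044 SE, edgeR adjusted p = 0.012) and Myc fell by 0.36, while the CDK inhibitors Cdkn1a and Cdkn1b rose by 0.15 and 0.24. Neither rise was called in the 6 CMS and FBS libraries alone or without CMS replicate 1, CMS replicate 2, SSt replicate 2 or any 1 FBS library, and DESeq2 called 4 of the 25 lower.

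Signalling through insulin receptor substrate, PI3K, Akt and mTOR is followed by the study in RNA and protein. In RNA it reports changes of this pathway's genes with CMS or FBS against SSt. The list counted here holds components of the pathway, compared between CMS and FBS. Of 40 tested genes 2 rose and 1 fell, against 3.91% and 5.03% of all tested genes, with a median log2 fold change of 0.04. Igf2r, which clears IGF2, rose and measured 206, 204 and 208 FPKM in the CMS libraries, against 182, 183 and 180.1 FPKM in the FBS libraries (log2 fold change 0.19 ± 0.022 SE, edgeR adjusted p = 0.00116). Pik3cg, a PI3K subunit of leukocytes, fell by 0.26, a call that was lost without CMS replicate 2 or CMS replicate 3. Irs1 measured 2.11, 2.24 and 2.15 FPKM in the CMS libraries, against 2.27, 2.19 and 2.27 FPKM in the FBS libraries and was not called (log2 fold change -0.04, 95% interval of the single gene -0.18 to 0.10, edgeR adjusted p = 0.738). Akt1 and Mtor were not called either, at 0.06 and -0.01 (edgeR adjusted p = 0.28 and 0.868).

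Of 43 tested growth factors and receptors 1 rose and 8 fell, among them Hgf, hepatocyte growth factor, by 0.49. The count of 8 was 15 with DESeq2 and 4 in the 6 CMS and FBS libraries alone. Of 37 tested TGF-beta and BMP genes 4 rose and 8 fell. The count of 4 was 1 without CMS replicate 2 or FBS replicate 2 or in the 6 CMS and FBS libraries alone, and 2 without CMS replicate 1, FBS replicate 1 or FBS replicate 3. Pmepa1, which dampens TGF-beta signalling, measured 20.7, 20.4 and 20.1 FPKM in the CMS libraries, against 12.7, 12.2 and 13.4 FPKM in the FBS libraries (log2 fold change 0.69 ± 0.042 SE, edgeR adjusted p = 8.69e-05), its SSt mean being 110.0 FPKM. Fst, which neutralises activins, measured 16.2, 15.4 and 12.2 FPKM in the CMS libraries, against 25.3, 22.8 and 23.02 FPKM in the FBS libraries (log2 fold change -0.69 ± 0.093 SE, edgeR adjusted p = 0.00266), and Inhba, an activin subunit, fell by 0.32. Pmepa1 and Fst kept their groups apart, in opposite directions. In the Wnt and Notch list 1 of 25 rose, the receptor Fzd8 by 0.64, and 3 fell (1 without CMS replicate 2, and 6 with DESeq2), of which Sfrp1, a secreted Wnt antagonist, measured 1.70, 1.57 and 1.76 FPKM in the CMS libraries, against 3.80, 3.06 and 3.62 FPKM in the FBS libraries (log2 fold change -1.05 ± 0.13 SE, edgeR adjusted p = 0.00176). Of 41 tested genes of glycolysis and hypoxia 0 rose and 6 fell, with the hypoxia factor Epas1 at -0.81 and its target Adm, adrenomedullin, at -0.44. That count was 13 without CMS replicate 1, and 3 without CMS replicate 3 or FBS replicate 2.

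Large parts of the transcriptome gave no call. By edgeR 0 of 46 oxidative phosphorylation genes, 0 of 67 cytosolic ribosomal proteins, 0 of 39 ribosome biogenesis genes and 0 of 17 clock genes passed the adjusted p, with 5, 7, 4 and 4 of them under an unadjusted p of 0.05 and 1, 1, 0 and 2 called by DESeq2. Mitochondrially encoded genes took 4.23 to 4.50% of counts in the CMS libraries and 4.09 to 4.37% in the FBS libraries.

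The 28 genes past a fold of 2 were mostly of low level. In 6 of them the mean was under 1 FPKM in CMS and in FBS, and 8 reached a mean of 5 FPKM in CMS or FBS. The higher ones were Ddit4l2, a relative of the stress-induced mTOR inhibitor Ddit4, with 26.3, 29.9 and 31.5 FPKM in the CMS libraries, against 13.5, 10.6 and 15.9 FPKM in the FBS libraries (log2 fold change 1.14 ± 0.24 SE, edgeR adjusted p = 0.0188), the prolactin family gene Prl6a1 (log2 fold change 1.07) and the long non-coding RNA AABR07021998 (1.29). Aldh1a2, which makes retinoic acid, measured 14.4, 15.9 and 13.7 FPKM in the CMS libraries, against 31.7, 31.8 and 27.1 FPKM in the FBS libraries (log2 fold change -1.03 ± 0.078 SE, edgeR adjusted p = 0.000166), and its SSt mean was 3.12 FPKM. Rnd1, a small GTPase that loosens actin, measured 2.54, 1.53 and 1.25 FPKM in the CMS libraries, against 3.87, 4.65 and 4.38 FPKM in the FBS libraries (log2 fold change -1.26 ± 0.22 SE, edgeR adjusted p = 0.00861). Tnfrsf14, Rgs16 and LOC680920 fell by 1.66, 1.37 and 1.12. The SSt means of Prl6a1, AABR07021998, Tnfrsf14, Rgs16 and Rnd1 were 11.6, 7.90, 24.9, 13.2 and 15.7 FPKM, above those of CMS and FBS. The SSt means of Ddit4l2 and LOC680920, 3.83 and 1.05 FPKM, lay under both. The largest fitted difference, -7.26 for ENSRNOG00000056808, a pseudogene, rested on 2 of the FBS libraries, with 0.181, 0.238 and 0.197 FPKM in the CMS libraries and 54.6, 53.9 and 0.247 FPKM in the FBS libraries. The count of 28 was 46 without CMS replicate 1.

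The same comparison was available in MSCs of miR-337-/- rats, whose libraries share none with the WT ones. The Mir337 row had 0 counts in all 18 libraries, so that the knockout was not checked here. In KO MSCs 1910 of 12888 tested genes were called (14.8%), 868 higher (6.73%) and 1042 lower (8.09%). One KO FBS library, replicate 1, stood apart: without it 3158 genes were called. The count was 965 without KO CMS replicate 2, 879 without KO CMS replicate 3, 1064 without KO FBS replicate 2 and 1079 without KO FBS replicate 3. Of the 1155 genes called in WT, 1145 were tested in KO and 84.2% had the same sign there (82.0% without KO FBS replicate 1), against 63.6% of the 12610 genes tested in both. Called in both with the same sign were 459 genes, which are 39.7% of the WT calls and 24.0% of the KO calls, and 9 were called with opposite signs. Without KO FBS replicate 1 these were 564 and 58.

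Many antioxidant and chaperone genes rose in KO MSCs as well. In KO 17 of 24 NRF2 and antioxidant genes rose and 0 fell (18 and 1 without KO FBS replicate 1), with a median of 0.49, and 13 of 21 heat shock genes rose and 0 fell. The difference of the fold changes, WT minus KO, was tested as an interaction over all 18 libraries, where 803 of 13194 genes (6.09%) passed, 502 above 0 (3.8%) and 301 below 0 (2.28%). The count was 2050 without KO FBS replicate 1, 520 without KO CMS replicate 2, 525 without KO CMS replicate 3, 508 without WT CMS replicate 3 and 511 without WT FBS replicate 2. Hmox1 rose more in KO (log2 fold change 1.50 in KO and a difference of -0.93, edgeR adjusted p = 0.0117), as did Plin2 (1.38, difference -0.77, edgeR adjusted p = 0.000351). Nqo1 rose in WT and stood at -0.05 in KO (difference 0.56, edgeR adjusted p = 0.00392), and Pmepa1 rose in WT and stood at 0.12 in KO (difference 0.57, edgeR adjusted p = 0.00416). Ccn1 and Amotl2 fell by 0.86 and 0.63 in KO, and their differences were not called (edgeR adjusted p = 0.749 and 0.866). Other lists kept their direction less, with values without KO FBS replicate 1 in parentheses. In KO 0 of 20 NF-kappaB genes rose and 2 fell (7 and 2), and 0 differences were called below 0 (11). Of 41 glycolysis and hypoxia genes 5 rose and 0 fell (25 and 0), with 4 differences below 0 (25). Of 21 chemokines 0 rose and 3 fell (3 and 2), with 0 differences below 0 (8) and 1 above (1).

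**Figure D5:**
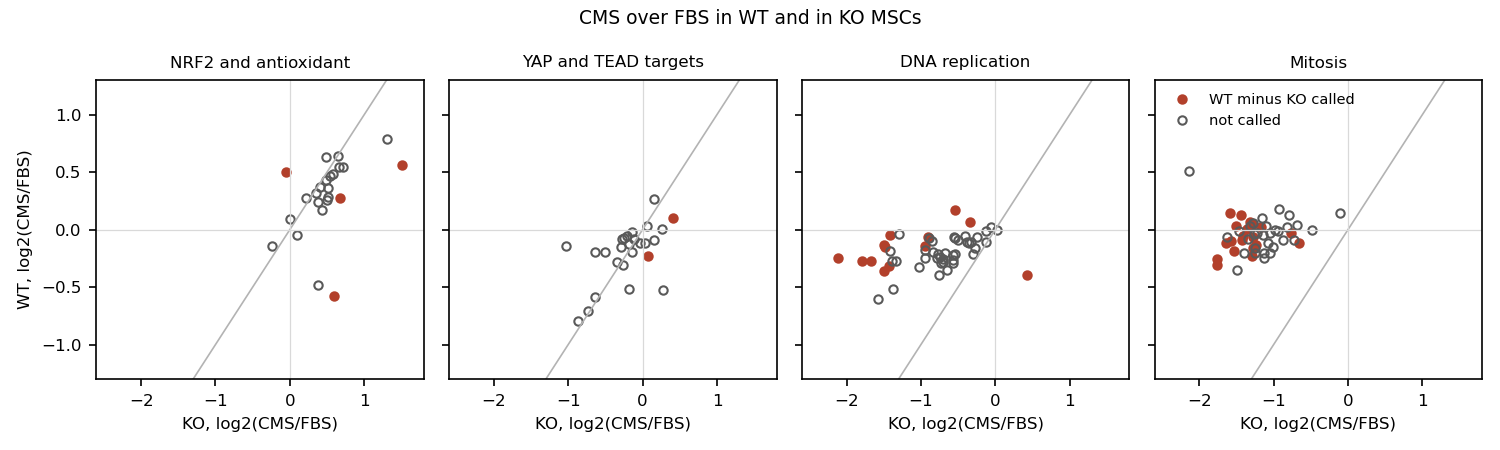
Log2 fold change of CMS over FBS in WT MSCs (vertical axis) against KO MSCs (horizontal axis) for the tested members of 4 lists, each point a gene, with genes whose WT minus KO difference was called as filled red circles and others open. The grey diagonal marks equal fold changes. Most antioxidant genes have positive values on both axes, and mitosis genes lie to the left of the diagonal, with medians of -0.04 in WT and -1.26 in KO.

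More genes of division fell in KO, and the difference from WT was called for some of them. In KO 34 of 52 DNA replication genes fell and 1 rose, with a median of -0.74, and 33 of 51 mitosis genes fell and 0 rose, with a median of -1.26. The difference, WT minus KO, was called above 0 for 12 replication genes and below 0 for 1, and for 20 mitosis genes above 0 and 0 below. Without KO FBS replicate 1 these were 41 and 1, and 50 and 0. Mki67 stood at -1.51 in KO (difference 1.55, edgeR adjusted p = 0.0307). Differences were called among macrophage markers too. In KO 15 of the macrophage markers fell and 4 rose (18 and 13 without KO FBS replicate 1), and the difference was called above 0 for 10 and below 0 for 2 (16 and 12 without KO FBS replicate 1). C1qa and C1qc fell by 2.63 and 3.18 in KO, with differences of 2.18 and 2.62 (edgeR adjusted p = 0.00298 and 0.00525), and Csf1r by 1.24, with a difference of 1.05 (edgeR adjusted p = 0.00182).

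The 10 genes of smallest adjusted p in that interaction include the 5 described here. Emilin2, a matrix protein, measured 53.9, 50.9 and 54.4 FPKM in the CMS libraries, against 55.4, 52.9 and 54.6 FPKM in the FBS libraries in WT and was not called there, while it fell by 1.42 in KO (difference 1.41, edgeR adjusted p = 5.08e-06). Stab1, a scavenger receptor, Coro1a, a leukocyte actin regulator, and Fes, a myeloid tyrosine kinase, fell by 0.50, 0.40 and 0.30 in WT and by 2.44, 1.17 and 1.99 in KO. Actb fell by 0.22 in WT and 0.65 in KO (difference 0.44, edgeR adjusted p = 6.67e-05). Of these 5 genes Emilin2 was not called in WT, and the other 4 fell in both genotypes.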

How the data were processed

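RNA of rat bone marrow MSCs was sequenced in 18 libraries, 3 of each genotype and treatment. The deposited tables gave counts per gene and, beside them, FPKM values that the authors had computed from those counts and gene lengths, for 32623 genes with rat Ensembl identifiers. Bowtie 0.12.2 and mm10, a mouse build, are listed in the submitters' processing notes, so that no coordinate was taken from the tables, and strand use in counting is not given in the sources used here. Reads of near-identical copies, such as the Gsta, Clec4a and heat shock genes, may be split between them, which leaves their values uncertain.

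Genes with at least 1 FPKM in at least 3 of 9 libraries were tested on counts with edgeR 4.0.16 (TMM scaling, quasi-likelihood test, Benjamini-Hochberg adjustment, R 4.3.3). The 9 WT libraries shared one fit, the 9 KO libraries another, and the difference WT minus KO was an interaction over 18 libraries. Standard errors were derived from the F statistic. The scripts were tested on simulated data. Alternatives were DESeq2 1.42.0, limma 3.58.1 on log2(FPKM + 0.1, 1 or 5), RLE size factors, library totals, no filter (at least 10 counts) or 5 FPKM, the 6 CMS and FBS libraries alone, a replicate block and leaving out each library. Promoters and their coordinates came from RefSeq (GRCr8).

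Members and lists were chosen with earlier results of these data known. Named genes were those of a fold of at least 2, the 12 highest and 12 lowest at 5 FPKM or more without overlap, up to 4 called and 4 abundant members of each list, genes the study names and the 10 of smallest adjusted p in the difference. Another 42 named genes fall outside that rule and were chosen after their values were seen. Results for some genes are not reported here.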

Additional observations from a re-analysis of the deposited data

Results flagged for a closer look

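For 41 named genes the log2 fold change of CMS over FBS differed between WT and KO MSCs by the interaction test (edgeR adjusted p under 0.05 over 13194 genes). All values here are WT minus KO on the log2 scale, so that a positive one means a higher fold change in WT. Without KO FBS replicate 1, 41 of the 41 were still called with the same sign.

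Among genes of stress, chaperones and amino acid supply the difference was -0.93 for Hmox1, 0.56 for Nqo1, -0.39 for Gclm, -1.16 for Mt1, -0.31 for Dnaja1, -0.51 for Slc3a2, -0.43 for Slc6a9 and -0.49 for Sqstm1. Among genes of lipid and iron use it was -0.77 for Plin2, -0.37 for Me1 and -0.53 for Tfrc. Among genes of matrix, TGF-beta signalling and actin it was 0.57 for Pmepa1, 0.39 for Adamts1, -0.38 for Col18a1, 1.41 for Emilin2, 0.44 for Actb, 0.26 for Tpm2 and -0.31 for Pdgfra.

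Among markers and genes of myeloid cells and osteoclasts the difference was -0.29 for Gpnmb, 1.02 for Tlr8, 1.77 for Clec4a1, 1.05 for Csf1r, 0.68 for Aif1, 2.18 for C1qa, 2.62 for C1qc, 1.95 for Stab1, 0.79 for Coro1a, 1.71 for Fes, 1.58 for Rasgrp4, 1.72 for Alox5ap and -2.40 for Ocstamp. Among inflammatory genes it was 1.39 for Ccl12 and -0.69 for Ptx3. Among genes of the cell cycle it was 1.13 for Pole, 0.62 for Ccnd1 and 1.55 for Mki67.

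The remaining values were 1.18 for Trpc6, 0.95 for Pik3cg, 1.82 for LOC680920, 0.996 for Rnf144b and 0.65 for Gas7. The part that KO FBS replicate 1 and the share of macrophages had in these differences was not tested beyond the fit without that library.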

How the results depend on the processing

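Leaving out 1 library at a time gave 579 to 1052 called genes for CMS over FBS in WT (255 to 457 higher, 324 to 595 lower), against 1155, and 19 to 46 at a fold of at least 2, against 28. It gave 879 to 3158 in KO (407 to 1514 higher, 472 to 1644 lower) and 508 to 2050 for the difference WT minus KO (307 to 1071 above 0, 201 to 979 below). DESeq2 called 1748 in WT, 1069 of them lower. With a fold of at least 2 the counts were 28 in WT, 337 in KO and 202 for the difference. The WT count of 28 was 45 with DESeq2, 45 with no FPKM filter, 16 at 5 FPKM, 9 with limma at a pseudocount of 1 and 5 at a pseudocount of 5. The cause of these shifts was not tested, and the fits that leave out a library also hold fewer libraries.

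The replicate numbers did not pair the libraries: residuals of CMS and FBS libraries of the same number correlated at 0.005, -0.0026 and 0.021, and those of other numbers at -0.043 to 0.039. With the replicate block 939 genes were called in WT, 1227 in KO (571 higher, 656 lower) and 558 for the difference.

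Of the 147 called genes named, 115 stayed past the limit under every alternative other than leaving out a library, 103 under every alternative, and 0 changed sign. Genes that were not called changed sign. Cd68 had a log2 fold change of -0.0027 with DESeq2, -0.0027 with RLE size factors, -0.0070 with library totals and -0.0052, -0.0052 and -0.0051 with limma at pseudocounts of 0.1, 1 and 5, and ranged between -0.021 and 0.024 with 1 library left out. The ranges were -0.083 and 0.011 for Gpx3, -0.036 and 0.0046 for Mtor, -0.083 and 0.12 for Ptprc and -0.043 and 0.0074 for Emilin2. Leaving KO FBS replicate 1 out of the lists in KO and in the difference was chosen after seeing the data. With 3 libraries a group, differences within the spread were not detectable, and Lepr at 0 counts could not be compared.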
